A study of Rattus norvegicus with 12 samples.

Results

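Molecular chaperones help proteins to fold, to cross membranes and to be repaired or removed when damaged. The genes described here are 38 listed heat shock and endoplasmic reticulum (ER) chaperone genes of the rat with their regulators, taken from the array by gene symbol. A probe set, a group of short probes that reads a transcript, stood for a gene where the platform annotation gave it that symbol and no other, and the probe set with the highest mean signal was used for each gene. This gave 35 of the 38 genes, out of 10411 genes with such a probe set, and all 35 passed the filter on dim signals, so that they are 35 of 7719 genes tested. Hspa1b, Hspa8 and Hsp90aa1, which are stress-inducible and constitutive cytosolic chaperones, had no probe set with a single symbol and are not analysed here. By place in the cell the 35 are 20 ER genes, 12 cytosolic genes and 3 mitochondrial chaperones. The ER genes are 14 chaperones and folding enzymes, 2 subunits of the translocation channel and 4 genes classed with the unfolded protein response. The cytosolic genes are 8 heat shock proteins and co-chaperones and 4 subunits of the chaperonin CCT.

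The arrays measured total RNA of rat heart, taken as ventricle where the labels say so, with 1 array for each of 12 rats. In 7 d IR rats the left anterior descending coronary artery was closed for 30 min and reopened, and tissue was taken after 7 d of reperfusion (replicates 44, 47 and 48); 7 d sham rats had the operation without the closure (80, 81 and 82). The 2 d IR rats (69, 73 and 76) had the same closure and 2 d of reperfusion, against 2 d sham rats (71, 72 and 74). Every rat, sham included, had surgery, and the labels used here give no strain, sex, age or separate sampling of the infarct and the spared muscle.

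The values are signals on a linear scale from the MAS5 software, scaled per array, and changes are differences of log2(signal + 195) with limma's moderated standard error (SE), so that changes of dim genes are understated. Folds are given on the same scale, of signal + 195. A gene was called where limma's p, adjusted by the Benjamini-Hochberg method over 10527 probe sets, was under 0.05. The p-values set the differences between groups against the spread within the groups of these 12 samples, with 3 in a group. Array 69 of the 2 d IR group and array 82 of the 7 d sham group stood apart from their groups in the marker lists below. Values without them stand beside many of the changes they moved, but not all. Levels of different genes are not compared, because each probe set has its own response.

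The defining genes of heart muscle were bright on every array: 11 of 12 cardiomyocyte markers were on the array and tested, and their summed signal was 395755 to 434126 on 7 d IR, 519047 to 613012 on 7 d sham, 410423 to 546118 on 2 d IR and 555771 to 628655 on 2 d sham arrays. Of these 11 markers, 7 fell at 7 d and 1 at 2 d. Of 11 macrophage and monocyte markers, 8 rose on each day, with summed signals of 93077 to 103182 on 7 d IR, 36060 to 63723 on 7 d sham, 90298 to 139477 on 2 d IR and 38276 to 56529 on 2 d sham arrays. Of 12 fibroblast markers, 8 rose at 7 d and 1 at 2 d, with sums of 266368 to 335638 on 7 d IR, 114581 to 203934 on 7 d sham, 127012 to 155887 on 2 d IR and 100186 to 116631 on 2 d sham arrays. Of 10 lymphocyte and plasma cell markers, 5 were on the array and 2 were bright enough to be tested. In tissue of many cell types, fewer cells of a type and less RNA per cell cannot be told apart.

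The ER imports proteins that will be secreted or placed in membranes, and Hspa5 (BiP), the lectin chaperones and the disulfide isomerases fold them there. When unfolded proteins build up, the unfolded protein response raises these genes through transcription factors such as Xbp1 and Atf4. Heat shock factors do the same for cytosolic and some mitochondrial chaperones after heat or other protein damage. In heart muscle the cytosolic chaperones are known for guarding myosin and the sarcomere, and the mitochondrial ones for folding imported enzymes of the respiratory chain.

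The DNA around the transcription starts was searched for the ER stress response element, its second form and the heat shock element. No separate element of Atf4 was searched. In RefSeq sequences of assembly GRCr8, 250 bases before to 50 bases after each start were searched on both strands, for 30 of the 35 genes; Manf, Pdia3, Pdia6, Sec61a1 and St13 had no entry. The ER stress response element, read as CCAAT, then 9 bases of any kind, then CCACG, was in the windows of 7 of the 30 genes (Calr, Canx, Creld2, Dnajc3, Hsp90b1, Hspa5 and Xbp1) and in 0.0657% of 33469 rat windows. Its second form, read as ATTGG, any base and CCACG, was in 3 of the 30 (Dnajb11, Herpud1 and Hyou1) and in 0.0508% of all windows, and no member window held both forms, which can share their last letters. The heat shock element, read as GAA, TTC and GAA with any NN between them, was in 5 of the 30 (Cct4, Dnaja1, Hspd1, Hspe1 and Hsph1) and in 0.798% of all windows; in Dnaja1 and Cct4 it lay after the start, from base 9 and base 25. In all, 10 of the 16 ER genes with a window held an ER element and 0 held the heat shock element, while 5 of 14 cytosolic and mitochondrial genes held the heat shock element and 0 an ER element. A match is a run of letters and not a shown binding site. The stretches below, 5′ to 3′ on the strand of the gene, belong to genes described in the results, with the matched letters of either strand in capitals; those of Hspa5 (chr3:38452963-38453001, plus strand), Dnajc3 (chr15:102432524-102432562, plus), Creld2 (chr7:121789229-121789267, plus), Calr (chr19:40213125-40213163, plus) and Xbp1 (chr14:84604548-84604586, plus) hold the ER stress response element, that of Herpud1 (chr19:10614811-10614841, minus) the second form and that of Hsph1 (chr12:10427322-10427354, plus) the heat shock element.
Hspa5: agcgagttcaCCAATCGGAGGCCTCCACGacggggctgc
Dnajc3: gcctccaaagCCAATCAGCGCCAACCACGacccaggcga
Creld2: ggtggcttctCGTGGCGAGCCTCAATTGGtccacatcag
Calr: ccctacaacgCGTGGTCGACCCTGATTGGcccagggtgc
Xbp1: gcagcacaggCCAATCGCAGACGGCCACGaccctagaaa
Herpud1: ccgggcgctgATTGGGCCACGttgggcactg
Hsph1: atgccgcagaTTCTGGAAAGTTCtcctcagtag

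The element began 43 bases before the start of Hspa5, 65 before that of Xbp1, 133 before that of Dnajc3, 145 before that of Creld2 and 232 before that of Calr. Hsp90b1 held 2 copies, at 176 and 72 bases before its start, on opposite strands. Hspd1 and Hspe1, the partner chaperonins of mitochondria, lie head to head with their starts 290 bases apart, and a single stretch with overlapping heat shock elements on both strands falls in the windows of both. The 250 bases before the start of Hspe1 (chr9:64084077-64084326, plus strand) are shown for that reason, with those letters in capitals.
Hspe1: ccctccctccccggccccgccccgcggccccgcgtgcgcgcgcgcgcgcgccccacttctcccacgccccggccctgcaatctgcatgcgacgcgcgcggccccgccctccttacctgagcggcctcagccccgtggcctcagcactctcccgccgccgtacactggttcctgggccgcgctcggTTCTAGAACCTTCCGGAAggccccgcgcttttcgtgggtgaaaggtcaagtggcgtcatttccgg

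Between IR and sham hearts, few chaperone genes passed the test, and the class medians lay on both sides of 0. At 7 d, Hspa4, Hspd1 and Hspe1 fell and no member rose: 3 of 35 genes (8.57%) were called, against 12.1% of all probe sets (6.22% higher and 5.85% lower). At 2 d, Dnajc3 rose and no member fell: 1 of 35 genes (2.86%) was called, against 2.47% of all probe sets (1.88% higher and 0.589% lower). These shares are near or under those of all probe sets. The median change of the 35 genes was 0.04 at 7 d, with 18 positive, and 0.25 at 2 d, with 27 positive; the median of all 10527 probe sets was 0.01 at 7 d and 0.00 at 2 d. At an unadjusted p under 0.05 there were 9 of 35 genes at 7 d, against 28.0% of all probe sets, and 16 of 35 at 2 d, against 21.5%. The IR arrays all lay above the sham arrays for 5 genes at 7 d (16.6% of all probe sets did so) and for 14 genes at 2 d (13.9% of all). They all lay below for 4 genes at 7 d (15.8% of all) and 5 at 2 d (12.5% of all).

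**Figure D1:**
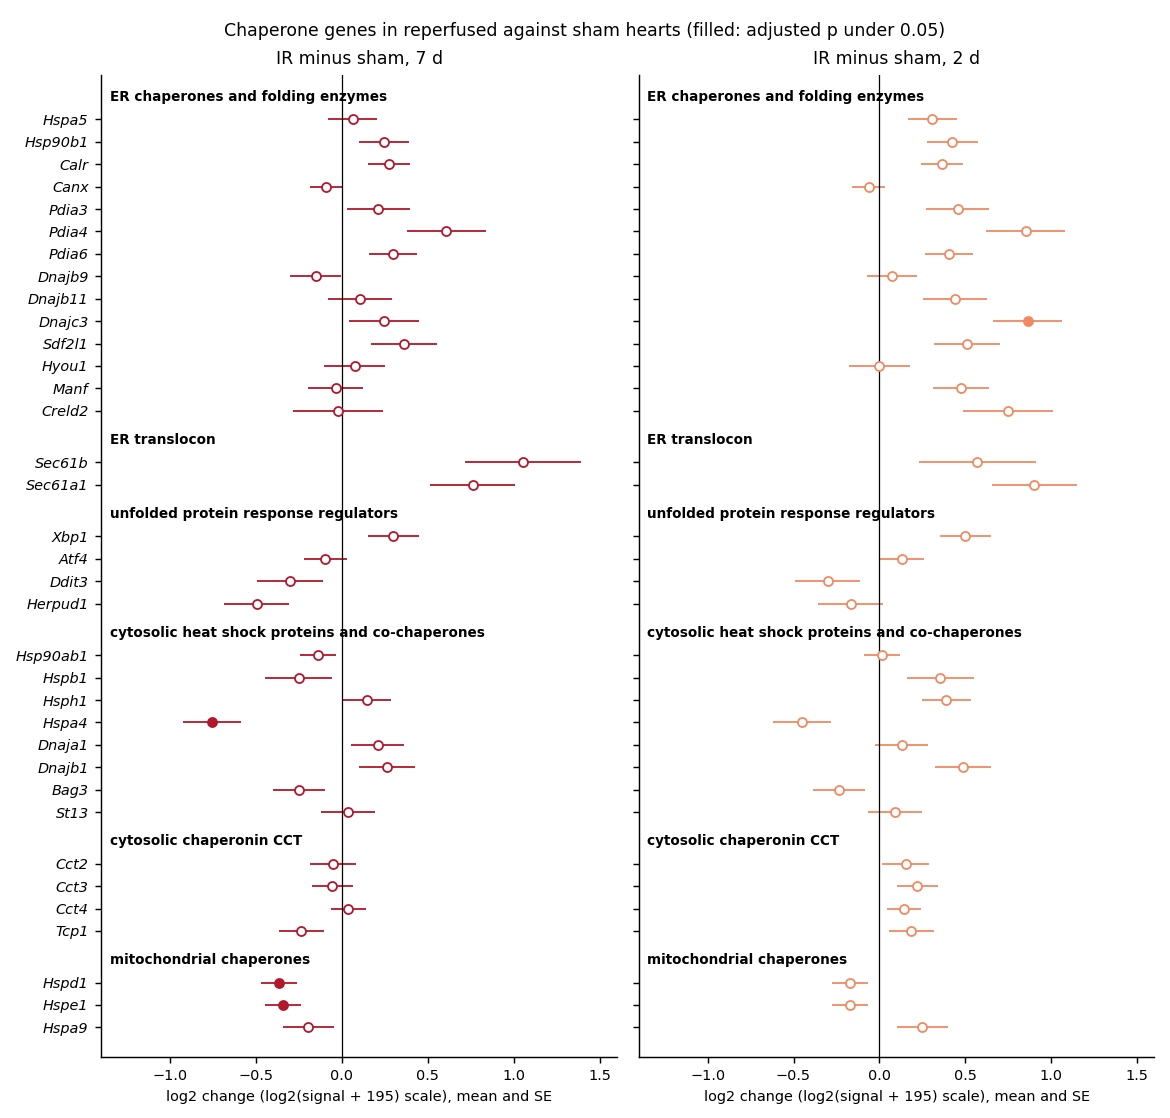
Log2 change of each of the 35 genes between IR and sham hearts at 7 d (left) and 2 d (right), grouped by class; points are limma estimates from 3 against 3 arrays, bars are 1 SE, and filled points passed an adjusted p under 0.05. Most ER chaperones lie to the right of 0 at 2 d, and Hspa4, Hspd1 and Hspe1 are the filled points at 7 d.

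The ER chaperones and folding enzymes lay mostly above sham at 2 d. At 2 d, 12 of 14 had a positive change, with a median of 0.43 and a range of -0.06 to 0.86, and for 10 of 14 (71.4%) every IR array lay above every sham array, against 13.9% of all probe sets. At 7 d, 10 of 14 were positive with a median of 0.16, and 2 of 14 (14.3%) had no overlap upward, against 16.6% of all probe sets. Downward it was 1 of 14 (7.14%), against 15.8% of all probe sets. The mean of the 14 genes, as log2 difference from the sham mean of the same day, was 0.27, 0.13 and 0.07 on 7 d IR arrays 44, 47 and 48, against 0.03, 0.11 and -0.15 on 7 d sham arrays 80, 81 and 82. On 2 d IR arrays 69, 73 and 76 it was 0.74, 0.24 and 0.27, against 0.03, -0.04 and 0.02 on 2 d sham arrays 71, 72 and 74. All 3 arrays of the 2 d IR group lay above the sham arrays, and array 69 far above the other 2: it had the highest signal of its group for all 14 genes. Without array 69 the median change at 2 d was 0.28, with 11 of 14 positive, and without sham array 82 the median at 7 d was 0.10, with 9 of 14 positive. Array 69 also had the highest macrophage mean of all arrays (1.52 above the 2 d sham mean, against 0.81 and 1.06 on arrays 73 and 76) and the lowest cardiomyocyte mean (-0.61, against -0.16 and -0.29). The part of these cell types in the shift was not tested.

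Dnajc3, an ER co-chaperone of Hspa5 that also inhibits the stress kinase PERK, was the member called at 2 d. Its signals were 986, 958 and 887 on 7 d IR and 944, 788 and 598 on 7 d sham arrays. At 2 d, IR arrays had 1929, 1016 and 1165 and sham arrays 547, 591 and 803. The 2 d groups did not overlap and the 7 d groups did. It rose 1.82-fold at 2 d (log2 change 0.86, SE 0.20, adjusted p = 0.042), and the change at 7 d was 0.24 (SE 0.20, adjusted p = 0.471), 0.10 without sham array 82. The call was lost when any of 7 arrays was left out: the adjusted p was 0.216 without 2 d IR array 69, where the change was 0.62, 0.0567 without 2 d IR array 76, 0.122, 0.135 and 0.0505 without 2 d sham arrays 71, 72 and 74, and 0.0566 and 0.0511 without 7 d IR arrays 47 and 48. The direct test of 7 d against 2 d IR hearts gave -0.42 (SE 0.20, adjusted p = 0.327), with all 7 d IR arrays below all 2 d IR arrays.

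The protein disulfide isomerases, which form and rearrange disulfide bonds, had positive changes on both days without a call, and that of Pdia3 at 7 d leaned on single arrays. Pdia4 had signals of 3455, 2567 and 2019 on 7 d IR and 1501, 2126 and 1407 on 7 d sham arrays. Its 2 d values were 3640, 1835 and 2056 in IR and 1280, 1179 and 1279 in sham hearts. The IR arrays lay above the sham arrays at 2 d and overlapped with them at 7 d. The change was 0.61 (SE 0.23, adjusted p = 0.0966) at 7 d and 0.85 (SE 0.23, adjusted p = 0.0599) at 2 d. It was 0.50 at 7 d without sham array 82 and 0.57 at 2 d without array 69. Pdia6 had a change of 0.30 (SE 0.14, adjusted p = 0.176) at 7 d and 0.40 (SE 0.14, adjusted p = 0.116) at 2 d. Pdia3, which works with the lectin chaperones on glycoproteins, had 0.21 (adjusted p = 0.492) at 7 d and 0.46 (adjusted p = 0.167) at 2 d; a dimmer probe set of Pdia3 had -0.04 and -0.05 on these days. Without sham array 82 the 7 d change of Pdia3 was 0.012, and without IR array 69 its 2 d change was 0.33. Its 7 d signals were 12892, 9208 and 9409 on IR arrays 44, 47 and 48 and 9517, 11130 and 6728 on sham arrays 80, 81 and 82. Array 44 thus stood above the other IR arrays and array 82 below the other sham arrays.

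Hspa5, the ER member of the Hsp70 family, had signals of 9378, 7539 and 8811 on 7 d IR and 8428, 7492 and 8652 on 7 d sham arrays. In 2 d IR hearts it had 11936, 10507 and 8321, against 9190, 7071 and 8362 in 2 d sham hearts. Both pairs of groups overlapped. Its change was 0.06 (SE 0.14, adjusted p = 0.818) at 7 d and 0.31 (SE 0.14, adjusted p = 0.232) at 2 d, 0.19 without array 69. Hsp90b1, the ER form of Hsp90, had 11254, 11112 and 10081 on 7 d IR and 9277, 10077 and 8021 on 7 d sham arrays. At 2 d, IR arrays had 13876, 9049 and 9400 and sham arrays 7307, 8352 and 7847. The change of Hsp90b1 was 0.24 (adjusted p = 0.302) at 7 d, 0.16 without sham array 82, and 0.43 (adjusted p = 0.117) at 2 d, 0.23 without array 69. Its IR arrays lay above the sham arrays on both days, the nearest at 7 d being 10081 on IR array 48 and 10077 on sham array 81.

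The lectin chaperones hold glycoproteins while they fold. Calr, the soluble lectin, which also binds calcium in the ER, had 12724, 13772 and 12049 on 7 d IR and 11143, 11522 and 9222 on 7 d sham arrays. Its 2 d values were 14918, 11445 and 11780 in IR and 9953, 9326 and 10014 in sham hearts. There was no overlap on either day. The change was 0.27 (SE 0.12, adjusted p = 0.161) at 7 d, 0.18 without sham array 82. At 2 d it was 0.36 (SE 0.12, adjusted p = 0.11), 0.25 without array 69. Canx, the membrane-bound lectin, lay at -0.09 (adjusted p = 0.587) and -0.06 (adjusted p = 0.771) with overlapping groups, and its other probe sets differed: the next brightest gave 0.30 on both days (adjusted p = 0.176 at 7 d and 0.236 at 2 d) and a dimmer one gave 0.69 at 7 d (adjusted p = 0.0612) and 0.16 at 2 d.

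Several smaller ER proteins were higher on array 69 in particular. Creld2, an ER protein induced by unfolded proteins, had 3220, 1488 and 1702 on 2 d IR arrays 69, 73 and 76 and 986, 1314 and 1096 on 2 d sham arrays. On the 7 d IR arrays it had 1733, 1376 and 922, against 1194, 1866 and 1044 on the 7 d sham arrays. Its change was -0.02 (SE 0.26, adjusted p = 0.963) at 7 d, -0.17 without sham array 82, and 0.75 (SE 0.26, adjusted p = 0.12) at 2 d, 0.44 without array 69. Manf, a secreted ER-resident factor, had 4508, 3616 and 4112 on 7 d IR and 4169, 4510 and 3864 on 7 d sham arrays. In 2 d IR hearts it had 7087, 4431 and 4722, against 3894, 3298 and 4120 in 2 d sham hearts. The groups overlapped at 7 d and were apart at 2 d, with changes of -0.04 (adjusted p = 0.906) and 0.48 (SE 0.16, adjusted p = 0.112), and 0.27 at 2 d without array 69. Sdf2l1, a partner of Hspa5 cochaperones, had changes of 0.36 (adjusted p = 0.234) at 7 d, 0.18 without sham array 82, and 0.51 (adjusted p = 0.142) at 2 d, 0.28 without array 69. Dnajb11, a co-chaperone of Hspa5, had 0.11 (adjusted p = 0.754) at 7 d, -0.029 without array 82, and 0.44 (adjusted p = 0.187) at 2 d, 0.30 without array 69. Dnajb9, another ER co-chaperone, and Hyou1, a nucleotide exchange factor of Hspa5, did not pass either: -0.15 and 0.07 for Dnajb9 and 0.08 and -0.00 for Hyou1 at 7 d and 2 d, with adjusted p from 0.535 to 0.998. All 7 d IR arrays of Dnajb9, at 2535 to 2749, lay below its 7 d sham arrays, at 2775 to 3320. Without array 82 Dnajb9 had -0.077 at 7 d.

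**Figure D2:**
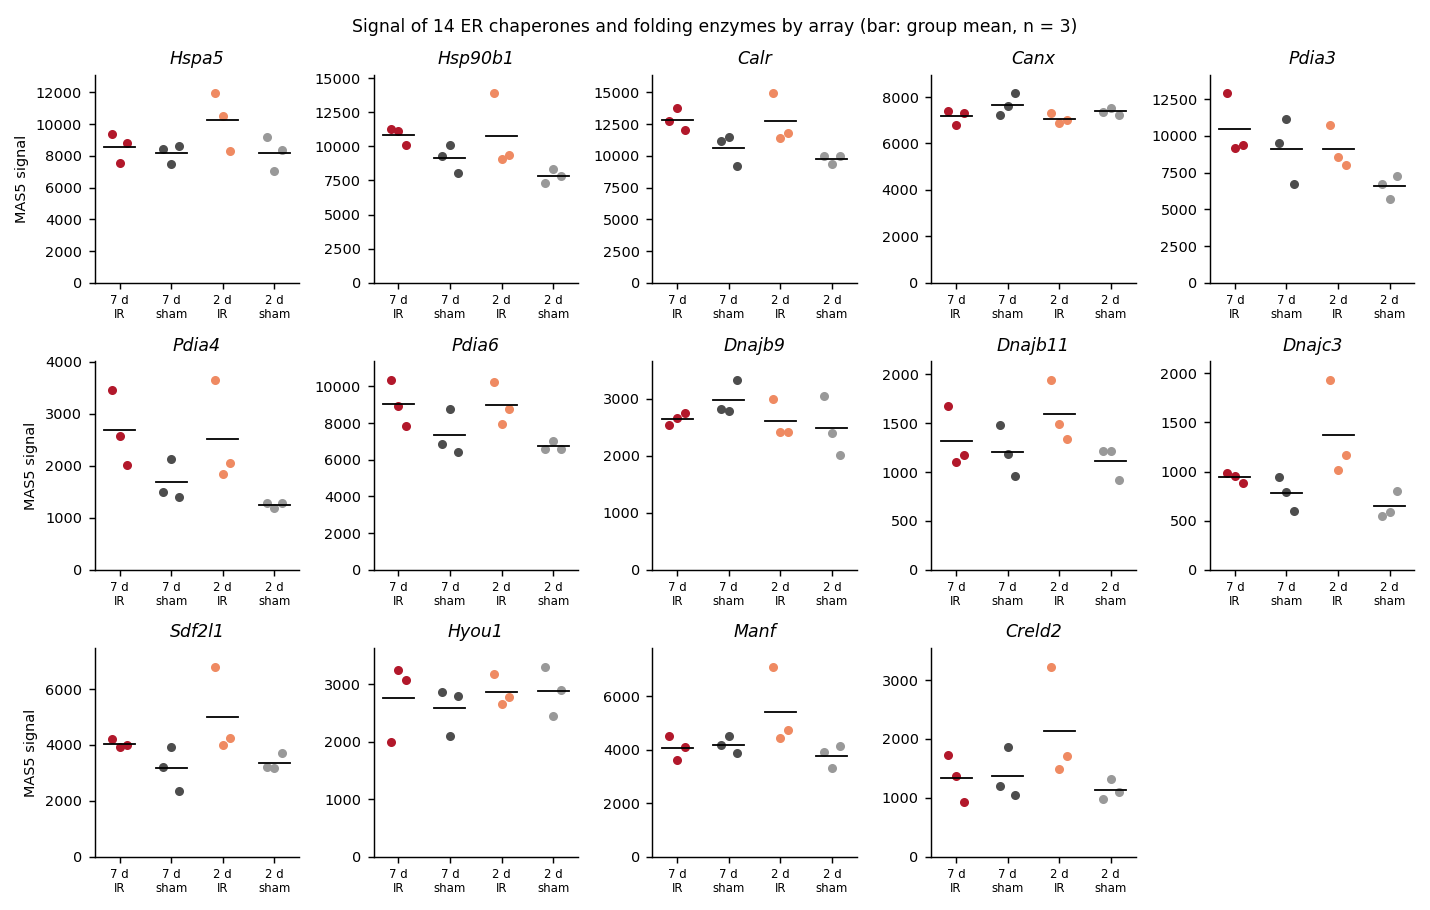
MAS5 signal of ER chaperones and folding enzymes on each array, by group (7 d IR, 7 d sham, 2 d IR, 2 d sham; bar, mean of 3 arrays). The highest 2 d IR point of each panel is array 69; Dnajc3 lies at 1016 to 1929 on 2 d IR arrays and 547 to 803 on 2 d sham arrays.

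Changes of ER chaperones were also set beside the promoter letters. Of the 8 ER chaperones with either form, the median change was 0.09 at 7 d and 0.39 at 2 d. The 3 with a window and no match, Pdia4, Dnajb9 and Sdf2l1, had medians of 0.36 and 0.51. Over the 5 genes with a heat shock element the median was 0.04 at 7 d and 0.13 at 2 d, with Hspd1 and Hspe1 called lower at 7 d and Hsph1 at 0.39 at 2 d. These are descriptions of few genes and were not tested.

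The ER translocon, the Sec61 channel through which new proteins enter the ER, had the largest median change among the 6 classes, 0.91 at 7 d and 0.74 at 2 d; it was 0.55 at 7 d without sham array 82 and 0.45 at 2 d without IR array 69. Sec61a1, the subunit that forms the pore, had 3470, 2676 and 2269 on 7 d IR and 1616, 2173 and 1046 on 7 d sham arrays. At 2 d, IR arrays had 4207, 2098 and 2797 and sham arrays 1258, 1573 and 1611. No groups of a day overlapped, and the change was 0.76 (SE 0.25, adjusted p = 0.0582) at 7 d and 0.90 (SE 0.25, adjusted p = 0.0633) at 2 d. Neither passed, and the second probe set gave 0.52 (adjusted p = 0.0715) and 0.50 (adjusted p = 0.123). Without sham array 82 the main probe set of Sec61a1 gave 0.52 at 7 d, and without IR array 69 it gave 0.65 at 2 d. Sec61b, a small subunit of the channel, had 7296, 6458 and 4680 on 7 d IR and 4208, 3776 and 1362 on 7 d sham arrays. Its 2 d values were 6997, 3091 and 3880 in IR and 2490, 3021 and 3213 in sham hearts. The groups were apart at 7 d, where sham array 82 was the lowest of all 12, and overlapped at 2 d. Its change was 1.05 (SE 0.34, adjusted p = 0.0571) at 7 d, 0.58 without array 82, and 0.57 (SE 0.34, adjusted p = 0.354) at 2 d, 0.25 without array 69. On array 82 the mean of the fibroblast markers was 0.72 below the mean of its group, while arrays 80 and 81 lay 0.34 and 0.38 above it.

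Among the genes classed with the unfolded protein response, Xbp1 lay above sham on both days and the other 3 did not. Xbp1, a transcription factor activated when the sensor IRE1 splices its mRNA, had 7646, 6629 and 6272 on 7 d IR and 5712, 6031 and 4873 on 7 d sham arrays. In 2 d IR hearts it had 7549, 6191 and 5393, against 5268, 4143 and 3940 in 2 d sham hearts. The groups did not overlap on either day, and the change was 0.30 (SE 0.15, adjusted p = 0.205) at 7 d and 0.50 (SE 0.15, adjusted p = 0.0777) at 2 d. Without sham array 82 it was 0.21 at 7 d, and without IR array 69 it was 0.37 at 2 d. Atf4, the factor translated when the kinase PERK is active, had -0.10 (adjusted p = 0.672) and 0.13 (adjusted p = 0.613). Ddit3 (CHOP), a factor tied to cell death in lasting ER stress, had -0.30 on both days (SE 0.19, adjusted p = 0.32 at 7 d and 0.383 at 2 d). Its 7 d IR arrays had 2209, 1912 and 2390 and its 7 d sham arrays 2066, 2366 and 4045, and without sham array 82, the highest of these, the 7 d change was -0.030. Its 2 d IR arrays, at 1961, 2252 and 2467, all lay below the 2 d sham arrays, at 2568, 2929 and 2850.

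Herpud1, a membrane protein of ER-associated degradation, had its lowest group mean in 7 d IR hearts. It had 2274, 2827 and 2173 on 7 d IR and 3064, 2717 and 5025 on 7 d sham arrays. At 2 d, IR arrays had 4064, 3979 and 4961 and sham arrays 5344, 4250 and 5068. All 7 d IR arrays lay below all 2 d IR arrays, while the IR and sham arrays of each day overlapped. Its change between IR and sham was -0.50 (SE 0.19, adjusted p = 0.101) at 7 d, -0.24 without sham array 82, and -0.17 (SE 0.19, adjusted p = 0.668) at 2 d. Between the IR groups it fell by 0.79 at 7 d relative to 2 d (SE 0.19, adjusted p = 0.0313), and the same comparison of sham groups gave -0.46 (SE 0.19, adjusted p = 0.472). The call between IR groups was lost without 7 d IR arrays 44 (adjusted p = 0.1) or 48 (0.108) and without 2 d IR arrays 73 (0.0749) or 76 (0.131).

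The cytosolic heat shock proteins and co-chaperones had no common direction: 4 of 8 were positive at 7 d (median -0.05) and 6 of 8 at 2 d (median 0.11). Hspa4, a nucleotide exchange factor that works with Hsp70, fell at 7 d. It had 770, 583 and 759 on 7 d IR and 1122, 1566 and 1288 on 7 d sham arrays. Its 2 d values were 661, 877 and 930 in IR and 1120, 1004 and 1476 in sham hearts. The IR arrays lay below the sham arrays on both days. At 7 d the signal was 1.69-fold lower (log2 change -0.75, SE 0.17, adjusted p = 0.0139), and at 2 d the change was -0.45 (SE 0.17, adjusted p = 0.142). Without array 69 the 2 d change was -0.33. The call at 7 d was lost without 7 d IR array 47 (adjusted p = 0.057) or 7 d sham array 82 (adjusted p = 0.056).

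Hsph1 belongs to the same exchange-factor family as Hspa4, and its changes had the opposite sign. It had 3144, 3275 and 3518 on 7 d IR and 2778, 2638 and 3560 on 7 d sham arrays. In 2 d IR hearts it had 3607, 3211 and 2855, against 2801, 2211 and 2240 in 2 d sham hearts. The groups overlapped at 7 d (change 0.15, SE 0.14, adjusted p = 0.535, and 0.27 without sham array 82) and were apart at 2 d (0.39, SE 0.14, adjusted p = 0.129). Dnajb1, the heat-inducible co-chaperone of Hsp70, had 1476, 1298 and 960 on 7 d IR and 976, 1053 and 948 on 7 d sham arrays. At 2 d, IR arrays had 1283, 1145 and 1016 and sham arrays 974, 709 and 629. Its change was 0.26 (adjusted p = 0.323) at 7 d and 0.49 (SE 0.16, adjusted p = 0.112) at 2 d, where the groups did not overlap. A second probe set of Dnajb1, of similar brightness, had the larger change at 7 d. It gave 0.57 (adjusted p = 0.132) at 7 d and 0.09 (adjusted p = 0.867) at 2 d.

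Bag3, a co-chaperone that keeps the muscle Z-disc in repair, had changes of -0.25 (SE 0.15, adjusted p = 0.301) at 7 d, -0.14 without sham array 82, and -0.24 (SE 0.15, adjusted p = 0.391) at 2 d. Its 2 d IR arrays, at 8669, 8419 and 10334, lay below the 2 d sham arrays, at 11087, 10488 and 10737. Hsp90ab1, the constitutive cytosolic Hsp90, had -0.14 (SE 0.10, adjusted p = 0.411) at 7 d and 0.02 (SE 0.10, adjusted p = 0.957) at 2 d. Dnaja1 and St13, both co-chaperones of Hsp70, had 0.21 and 0.04 at 7 d and 0.13 and 0.09 at 2 d, with adjusted p from 0.409 to 0.907.

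Hspb1, a small heat shock protein that binds unfolding proteins and actin, differed between the days after IR. It had 9917, 11401 and 13705 on 7 d IR and 15640, 12595 and 13365 on 7 d sham arrays. Its 2 d values were 24804, 24026 and 15107 in IR and 12485, 19021 and 18054 in sham hearts. Arrays 69 and 73 of the 2 d IR group were the highest of all 12, and array 76 lay within the range of the sham arrays. Its signal in IR hearts was 1.78-fold lower at 7 d than at 2 d (-0.84, SE 0.20, adjusted p = 0.0283), and between the days of sham it was -0.23 (SE 0.20, adjusted p = 0.731). Between IR and sham it had -0.25 (adjusted p = 0.436) at 7 d and 0.35 (adjusted p = 0.317) at 2 d, 0.23 without array 69; the difference of these effects was -0.60 (SE 0.28, adjusted p = 0.677), which did not pass. The call between IR groups was lost without 7 d IR arrays 44 (adjusted p = 0.112) or 47 (0.0921) and without 2 d IR arrays 69 (0.0797) or 73 (0.133).

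In the comparison of 7 d with 2 d IR hearts, Herpud1 and Hspb1 were the 2 of 35 members called, both lower (5.71%, against 3.45% of all probe sets, 0.997% in the lower direction). For 10 of 35 genes all 7 d IR arrays lay below all 2 d IR arrays, against 9.91% of all probe sets, and for 0 of 35 they lay above, against 10.6%. At an unadjusted p under 0.05 there were 10 of 35, against 16.4% of all probe sets. The chaperonin CCT, a ring complex of the cytosol that folds actin and tubulin, accounts for 4 of the 10 genes without overlap. Cct2 had 4071, 3922 and 3623 on 7 d IR and 6287, 5347 and 4603 on 2 d IR arrays, with a change of -0.45 (SE 0.14, adjusted p = 0.0846). Cct3 had -0.40 (SE 0.12, adjusted p = 0.0898), Tcp1 -0.35 (SE 0.13, adjusted p = 0.178) and Cct4 -0.29 (SE 0.10, adjusted p = 0.141), and none of the 4 passed. Between IR and sham the 4 genes had a median of -0.05 at 7 d and 0.17 at 2 d, and their groups overlapped on both days. Fibroblast markers also differed between the IR days: 9 of 12 were called higher at 7 d than at 2 d (median 1.24), while all 11 cardiomyocyte markers had a negative change (median -0.19, 0 called, 3 at an unadjusted p under 0.05). Their part in the lower chaperone signals was not tested. In the 2 sham groups, 0 of 35 members were called between 7 d and 2 d (0.076% of all probe sets were); at an unadjusted p under 0.05 there were 2, Pdia3 and Herpud1, against 9.42% of all probe sets.

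**Figure D3:**
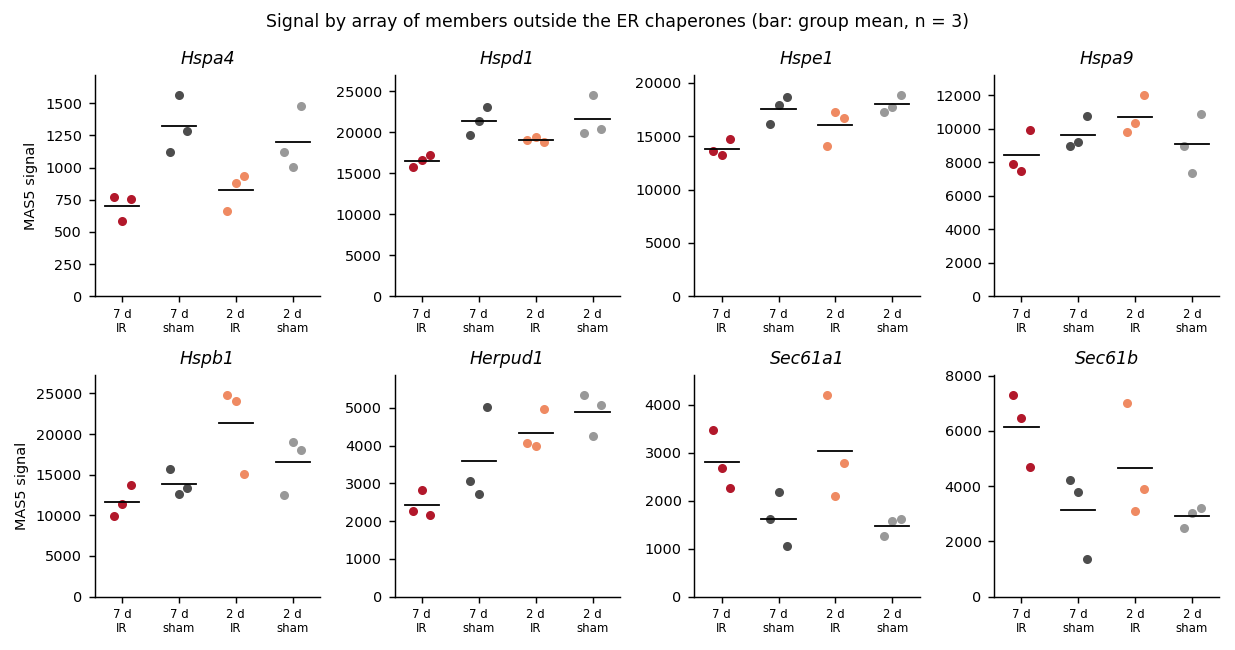
MAS5 signal on each array by group (7 d IR, 7 d sham, 2 d IR, 2 d sham; bar, mean of 3 arrays) for cytosolic and mitochondrial chaperones, Herpud1 and the Sec61 subunits. Hspa4, Hspd1 and Hspe1 have all 7 d IR points below all 7 d sham points; Hspb1 and Herpud1 have all 7 d IR points below all 2 d IR points.

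Mitochondrial chaperones fold proteins after import into the matrix. At 7 d 2 of the 3 were called lower, against 5.85% of all probe sets. Hspd1, the barrel of the mitochondrial chaperonin (Hsp60), had 15731, 16555 and 17202 on 7 d IR and 19607, 21342 and 23106 on 7 d sham arrays. In 2 d IR hearts it had 19058, 19384 and 18831, against 19947, 24572 and 20356 in 2 d sham hearts. Its IR arrays lay below the sham arrays on both days. It was 1.29-fold lower at 7 d (log2 change -0.37, SE 0.10, adjusted p = 0.0346) and had -0.17 (SE 0.10, adjusted p = 0.361) at 2 d.

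Hspe1, the lid of the same chaperonin (Hsp10), had 13576, 13191 and 14687 on 7 d IR and 16104, 17950 and 18682 on 7 d sham arrays. At 2 d, IR arrays had 14094, 17228 and 16735 and sham arrays 17303, 17761 and 18883. It too lay below sham on every IR array of both days. The signal was 1.27-fold lower at 7 d (-0.34, SE 0.11, adjusted p = 0.0475) and had a change of -0.17 (SE 0.11, adjusted p = 0.379) at 2 d, -0.081 without array 69. Both calls rest on several arrays. That of Hspd1 was lost without 7 d IR arrays 44, 47 or 48 (adjusted p = 0.117, 0.0838 and 0.0557) and without 7 d sham arrays 81 or 82 (0.0734 and 0.146). That of Hspe1 was lost in 9 of 12 fits that left out an array, while its change stayed between -0.40 and -0.30. The adjusted p was 0.129, 0.139 and 0.0617 without 7 d IR arrays 44, 47 and 48, 0.11 and 0.172 without 7 d sham arrays 81 and 82, 0.0605 without 2 d IR array 76, and 0.059, 0.0619 and 0.0604 without 2 d sham arrays 71, 72 and 74.

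Hspa9, the mitochondrial Hsp70 that pulls proteins through the inner membrane, had 7878, 7465 and 9903 on 7 d IR and 8970, 9176 and 10730 on 7 d sham arrays. Its 2 d values were 9803, 10308 and 12024 in IR and 8953, 7354 and 10858 in sham hearts. Its groups overlapped on both days, with changes of -0.20 (SE 0.15, adjusted p = 0.428) at 7 d, -0.12 without sham array 82, and 0.25 (SE 0.15, adjusted p = 0.36) at 2 d. A second probe set of Hspa9 gave -0.53 (adjusted p = 0.0197) at 7 d, which passed, and -0.33 (adjusted p = 0.157) at 2 d, so that the probe sets disagree in sign at 2 d. The dimmest probe set of Hspa9 gave -0.006 (adjusted p = 0.984) at 7 d and -0.06 (adjusted p = 0.888) at 2 d. The mean of the 3 mitochondrial genes was -0.36, -0.37 and -0.17 from the sham mean on 7 d IR arrays 44, 47 and 48, against -0.11, -0.01 and 0.12 on 7 d sham arrays 80, 81 and 82. Over the same arrays the cardiomyocyte markers had means of -0.51, -0.46 and -0.44 in 7 d IR, against -0.08, -0.05 and 0.13 in 7 d sham hearts. RNA quality, read as the 3′-to-5′ log2 signal ratio of the Actb control probe sets, averaged 0.18 ± 0.06 for 7 d IR and 0.58 ± 0.23 for 7 d sham samples (SD, n = 3 each). The same ratio of Gapdh was 0.32 ± 0.05 for 7 d IR and 0.39 ± 0.07 for 7 d sham samples. That of hexokinase was 0.82 ± 0.16 and 0.95 ± 0.24. For Gapdh and hexokinase the ranges of the 7 d groups overlapped, and for Actb they did not. The part of muscle cell content and of RNA quality in these falls was not tested.

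**Figure D4:**
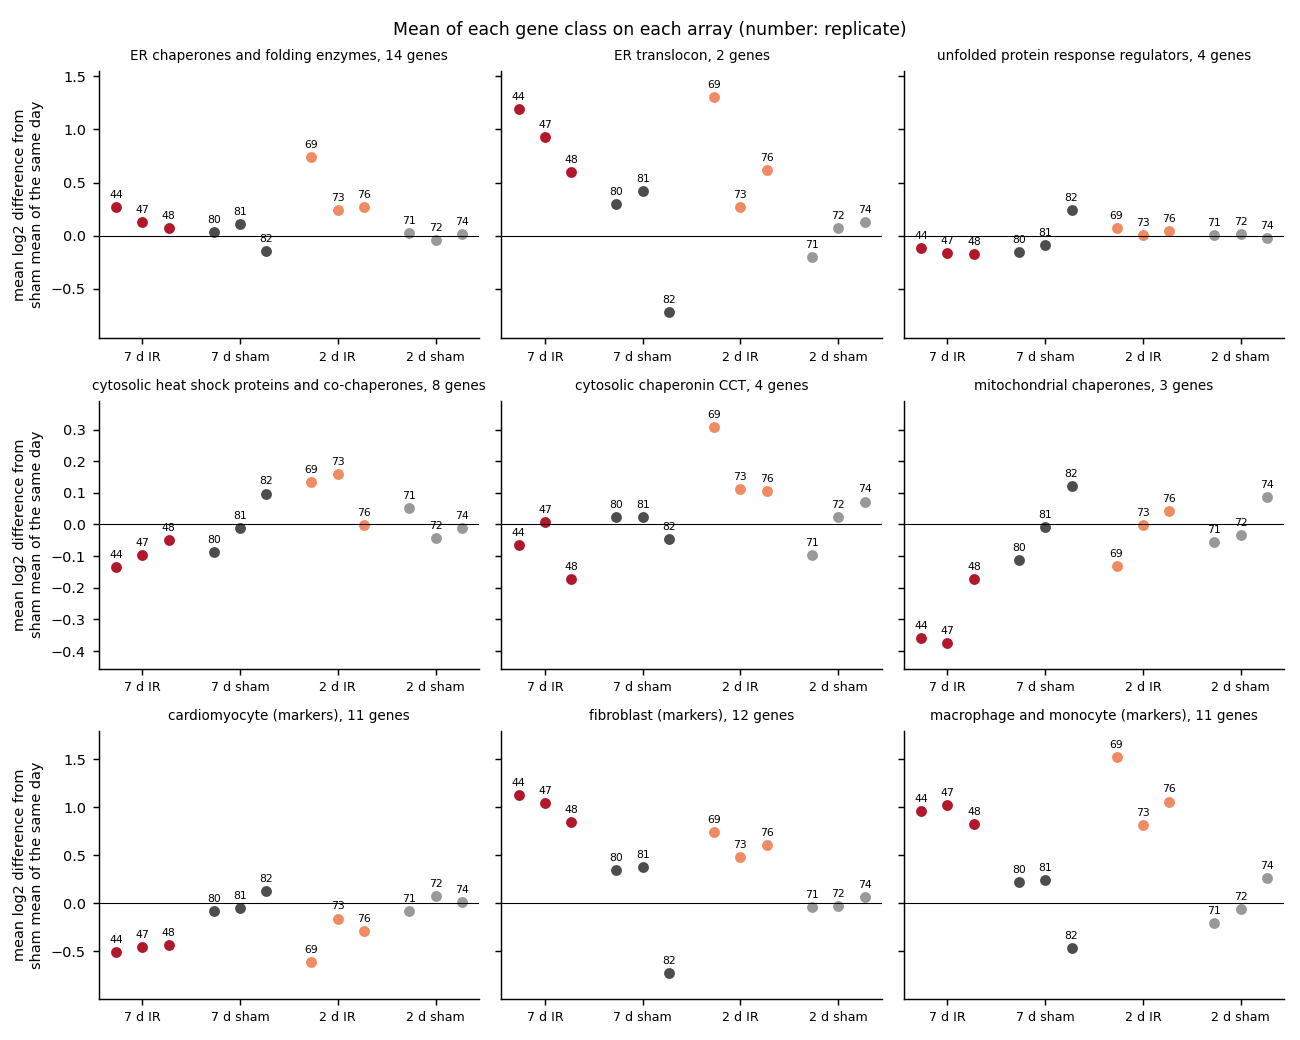
Mean log2 difference from the sham mean of the same day over the genes of a class (upper 2 rows) and over marker lists (lower row), for each array by group; the scale differs between rows, and 0 is the sham mean of that day. Array 69 stands highest among 2 d IR arrays for ER chaperones, at 0.74, and for macrophage markers, at 1.52; the mitochondrial chaperones and the cardiomyocyte markers are below 0 on all 7 d IR arrays.

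No member passed the test of whether the IR effect differed between 7 d and 2 d (0 of 35, against 0.0095% of all probe sets). At an unadjusted p under 0.05 there were 4 of 35, against 7.14% of all probe sets. These were Tcp1 (-0.42, SE 0.19), Manf (-0.51, SE 0.23), Hspb1 (-0.60, SE 0.28) and Dnajc3 (-0.62, SE 0.29), each with a lower effect at 7 d, and their adjusted p ran from 0.647 to 0.686. Of the 35 differences, 32 were negative, with a median of -0.20. Without array 69, 27 were negative with a median of -0.13, and among the 14 ER chaperones the median was -0.24 with all arrays (13 negative) and -0.065 without it (9 negative). The larger median of the ER chaperones at 2 d than at 7 d was thus not shown for any single gene. Between IR hearts of 7 d and 2 d these 14 genes had a median change of -0.03, with 7 positive and 7 negative. Between sham hearts of 7 d and 2 d their median was 0.13, with 12 of 14 positive, and 0.20 without sham array 82.

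Genes of the same pathways outside the list were also counted. Among 34 tested of 42 other ER folding enzymes, 11 rose and 0 fell at 7 d (32.4%, against 6.22% of all probe sets called higher). At 2 d 0 were called (11 at an unadjusted p under 0.05, against 21.5% of all), and the median was 0.27. Serpinh1, the collagen-specific chaperone, was 20752, 19778 and 16255 on 7 d IR and 10481, 11904 and 7894 on 7 d sham arrays, a change of 0.91 (SE 0.15, adjusted p = 0.00548). Rcn3, a calcium-binding protein of the ER, rose by 0.96 (SE 0.22, adjusted p = 0.0168) and Fkbp10, a prolyl isomerase that acts on collagen, by 0.88 (SE 0.27, adjusted p = 0.0477). No groups overlapped in these 3 genes. Fibroblast markers moved with them on the same arrays, at 1.12, 1.05 and 0.84 from the sham mean on arrays 44, 47 and 48, against 0.34, 0.38 and -0.72 on arrays 80, 81 and 82, and their part in these rises was not tested.

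Translocation and glycosylation genes of the ER were next. Of 30 tested of 33, 4 rose and 2 fell at 7 d, against 6.22% and 5.85% of all probe sets, and 2 rose at 2 d, against 1.88%. Of the markers on the same arrays, 8 of 12 fibroblast and 8 of 11 macrophage markers rose at 7 d and 1 and 8 at 2 d, and their part in these rises was not tested. Tram1, which helps chains into the channel, was called on both days: it was 9374, 7650 and 7872 on 7 d IR and 5698, 6371 and 4915 on 7 d sham arrays. In 2 d IR hearts it had 9614, 6646 and 7591, against 4944, 5372 and 4500 in 2 d sham hearts. Its groups were apart on both days, with a rise of 0.54 (SE 0.15, adjusted p = 0.0291) at 7 d and 0.65 (SE 0.15, adjusted p = 0.0351) at 2 d. Ssr1 and Ssr4, subunits of the complex beside the channel, rose by 0.61 (SE 0.18, adjusted p = 0.0377) and 0.52 (SE 0.13, adjusted p = 0.0222) at 7 d, and Rpn1, of the enzyme that adds sugar chains, by 0.53 (SE 0.13, adjusted p = 0.0482) at 2 d.

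For ER degradation and stress signalling, 29 of 40 listed genes were tested; 3 rose and 1 fell at 7 d, against 6.22% and 5.85% of all probe sets, and 0 were called at 2 d (7 at an unadjusted p under 0.05, against 21.5% of all). Nupr1, a stress-induced nuclear protein, rose by 0.87 (SE 0.19, adjusted p = 0.0131), Creb3l1, a membrane-bound transcription factor of secretory cells, rose by 0.75 (SE 0.22, adjusted p = 0.0377), and Ufd1, which helps to extract proteins for degradation, fell by 0.57 (SE 0.13, adjusted p = 0.0172).

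Chaperones of the cytosol outside the list had a negative median on both days. Of 41 tested of 53, 0 rose and 3 fell at 7 d (7.32%, against 5.85% of all probe sets called lower), and 0 were called at 2 d (10 at an unadjusted p under 0.05, against 21.5% of all); the median was -0.18 at 7 d and -0.10 at 2 d. The 3 are muscle proteins: Unc45b, the myosin chaperone, had 1706, 2223 and 2645 on 7 d IR and 3528, 3596 and 4610 on 7 d sham arrays and fell by 0.79 (SE 0.17, adjusted p = 0.0131). Itgb1bp2 (melusin), a chaperone of striated muscle, fell by 0.49 (SE 0.13, adjusted p = 0.0305), and Hspb6, a small heat shock protein of muscle, by 0.41 (SE 0.10, adjusted p = 0.0206). Cardiomyocyte markers were lower on the same arrays, and their part in these falls was not tested.

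Of 19 tested of 24 other mitochondrial chaperones and proteases, 0 rose and 6 fell at 7 d (31.6%, against 5.85% of all probe sets called lower), with a median of -0.41. At 2 d 0 were called (5 at an unadjusted p under 0.05, against 21.5% of all), with a median of -0.19. On the same arrays 7 of 11 cardiomyocyte markers fell at 7 d. The Actb ratio was 0.18 ± 0.06 for 7 d IR and 0.58 ± 0.23 for 7 d sham samples (SD, n = 3 each). The ratios of Gapdh, 0.32 ± 0.05 and 0.39 ± 0.07, and of hexokinase, 0.82 ± 0.16 and 0.95 ± 0.24, overlapped between these groups. The part of muscle cell content, of atrial tissue and of RNA quality in these falls was not tested. Grpel1, the nucleotide exchange factor of Hspa9, had 6338, 8236 and 7175 on 7 d IR and 10025, 8834 and 11886 on 7 d sham arrays, without overlap, and fell by 0.49 (SE 0.14, adjusted p = 0.0355). Trap1, the mitochondrial Hsp90, fell by 0.53 (SE 0.14, adjusted p = 0.0269) and Clpb, a disaggregase, by 0.52 (SE 0.15, adjusted p = 0.041). Among 16 tested of 19 other CCT and prefoldin genes 1 rose at 7 d, against 6.22% of all probe sets. It was Pdcl (0.61, SE 0.18, adjusted p = 0.0447), a cofactor in the folding of G protein subunits. At 2 d 0 were called (2 at an unadjusted p under 0.05, against 21.5% of all).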

How the data were processed

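Total RNA of 12 rat hearts was measured on 1 array each. Each deposited value is a linear intensity of a probe set, which the authors made with MAS5 per the submitters' processing notes; the version is not given in the sources used here. The mean of each array without the top and bottom 2% was 1500.4 to 1500.5, so the authors' intensity had been scaled per array.

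Groups came from sample titles and descriptions, because the design text repeats the 7 d sham group and leaves out 2 d sham; no batch is stated, and the replicate numbers of 7 d IR rats (44, 47, 48) lie apart from the rest. No arrays held identical values. Deposited intensity was turned here into log2(signal + 195), the constant being the median over arrays of the 20th percentile. Of 15923 probe sets, 57 controls were dropped, and 10527 above the 40th percentile on at least 3 arrays were kept. A group-means model was fitted over all arrays with limma 3.58.1 (R 4.3.3; trend, two-sided tests, Benjamini-Hochberg over all probe sets) after a check on simulated data. The comparisons were IR minus sham at 7 d and at 2 d, their difference, and 7 d minus 2 d within sham and within IR. Alternatives changed the constant, filter, scaling, trend, weights, arrays or probe set. All members were described. Of the other pathway genes, up to 3 called ones per list and day with the largest change were named. Members and gene lists were chosen with earlier results of these data known, so that no list is independent evidence and no list was tested. Arrays have no read depth; their number limits precision.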

Additional observations from a re-analysis of the deposited data

How the results depend on the processing

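No paired analysis was possible because the groups share no replicate numbers. Leaving out each array in turn gave 0 to 6 members called at 7 d (main count 3; 175 to 1463 probe sets, main 1271), 0 to 3 at 2 d (main 1; 2 to 515 probe sets, main 260), 0 to 2 between 7 d and 2 d IR (main 2; 192 to 439 probe sets, main 363), and 0 for the difference of effects (0 to 6 probe sets) and between sham days (1 to 76 probe sets, main 8). The lowest counts came without 7 d sham array 82 at 7 d (0 members, 175 probe sets) and without 2 d IR array 69 at 2 d (0 members, 2 probe sets), as well as without 2 d sham arrays 71 or 72 (0 and 2 in each); without 69 and 82 together, 1 member was called at 7 d (541 probe sets) and 0 at 2 d (70).

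Without the filter, members called were 1 at 7 d (898 probe sets), 0 at 2 d (77) and 0 between IR days (248); with the filter at the 60th percentile, 5 at 7 d (Sec61a1 and Sec61b added) and 3 at 2 d (Pdia4 and Sec61a1 added). Without the intensity trend they were 1, 0 (68 probe sets) and 0. At 7 d quantile normalization gave 1 and a fit of the compared groups alone gave 1. Array weights gave 2 at 2 d and, between days, 577 probe sets in IR and 25 in sham hearts. The cause of these changes was not tested. Hspa4 was called at 7 d under 20 of 22 alternatives, Hspd1 under 12, Hspe1 under 8 and Dnajc3 at 2 d under 11; between IR days Herpud1 was called under 16 and Hspb1 under 14.

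Of 1602 recomputed member values 37 changed sign, all of uncalled genes. The second probe set turned Canx to 0.30 on both days, Pdia3 to -0.039 and -0.054, Dnaja1 to -0.13 and -0.018 and St13 to -0.27 and -0.12 (7 d and 2 d), Hsp90ab1 to 0.36 at 7 d and Hspa9 to -0.33 at 2 d. Median centring gave -0.040 for Hsp90ab1 at 2 d, and -0.0031 for St13 and -0.00064 for Cct4 at 7 d; array weights gave -0.025 for Hsp90ab1 at 2 d. Without arrays 69 and 82 Dnajb9 was -0.022 at 2 d and Dnajb11 -0.029 at 7 d. With single arrays left out, the 7 d change ran from -0.0042 to 0.15 for Hspa5, -0.058 to 0.24 for Dnajb11, -0.060 to 0.28 for Hyou1, -0.11 to 0.043 for Manf, -0.20 to 0.19 for Creld2 and -0.079 to 0.16 for St13, and the 2 d change from -0.056 to 0.22 for Dnajb9, -0.11 to 0.094 for Hyou1, -0.022 to 0.069 for Hsp90ab1 and -0.031 to 0.22 for St13.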
